A study of Mus with 21 samples.

Results

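The transcript levels of Apold1 and of 9 immediate early genes, Fos, Fosb, Jun, Junb, Egr1, Atf3, Ier2, Nr4a1 and Dusp1, were followed through the mouse wound libraries. The 10 genes were listed by symbol, and all 10 were found among the 18806 genes of the count files and passed the filter on low counts. Apold1 was taken because the study names it and because it had been seen to move with immediate early genes, so the set was chosen by the level of Apold1 in 6.4/aFGF against 7.4/aFGF and by its co-movement with the other 9 genes. Both are given here as description, with no test.

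The study asked whether the pH of a hydrogel changes what a fibroblast growth factor does in a healing wound. Female C57BL/6 wild-type mice, 8 weeks old, were given a full-thickness wound on each side of the back, 8 mm wide and held open with a splint, and the wound skin was taken for RNA sequencing on day 4. Wounds of the control group had no hydrogel scaffold. The other 6 groups had a hydrogel of methacrylated gelatin (GelMA) set to pH 6.4, 7.4 or 8.4 and loaded with acidic fibroblast growth factor (6.4/aFGF, 7.4/aFGF and 8.4/aFGF) or with basic fibroblast growth factor (6.4/bFGF, 7.4/bFGF and 8.4/bFGF). Each of the 7 groups had 3 libraries, which the labels call biological replicates. No group had a hydrogel without a growth factor, so that the hydrogel, its pH and the growth factor cannot be told apart in a comparison with the control.

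Immediate early genes are switched on within minutes of a stimulus such as a growth factor, injury, stretch or stress, without the need for new protein. Their transcripts are short-lived, so a level in tissue reads the recent past of its cells, including the handling of the tissue. Many of them encode transcription factors that set the next wave of genes going in a healing wound, and others encode proteins that switch the signal off again. Fos and Fosb pair with Jun and Junb in the transcription factor AP-1, and Atf3, a stress-responsive factor, belongs to the same leucine zipper class. Egr1 is a zinc finger transcription factor, Nr4a1 is an orphan nuclear receptor and Dusp1 is a phosphatase that inactivates MAP kinases. Apold1 is an early response gene best known from endothelial cells.

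The libraries held between 34362558 and 37817833 counts, with a median of 36771838, and no mitochondrial gene was in the files. Wound skin is a mixture, and a lower level from fewer cells of a type cannot be told apart from less RNA per cell. Markers of keratinocytes, fibroblasts, endothelial cells, macrophages and neutrophils were all detected, in that none of these markers was at 0 across all 21 libraries. Genes of cartilage and bone reached a summed level of 197 CPM, the count of a gene scaled to the library size, in replicate 3 of 7.4/aFGF and at most 17.0 CPM in the other 20 libraries. Genes of the ovary and oviduct were highest in replicate 2 of 8.4/bFGF, with 691 summed CPM. Replicate 1 of 8.4/aFGF had 631 and replicate 1 of 6.4/aFGF 497, so the sum alone did not set replicate 2 of 8.4/bFGF far apart. The mean log2 CPM of that list, in which each gene weighs alike, was 0.61 in 8.4/bFGF, with an SD of 2.76 (n = 3). In the other groups it lay between -1.04 and -0.75, with an SD of at most 0.30. Liver genes had stood out in replicate 2 of 8.4/aFGF in an earlier look, although the summed liver list used here ranked it only 7 of 21. The mean log2 CPM of the liver list had an SD of 2.45 within 8.4/aFGF and of at most 1.21 within the other groups. Replicate 3 of 7.4/aFGF, replicate 2 of 8.4/bFGF and replicate 2 of 8.4/aFGF were left out together in one alternative. The results that moved are given with it.

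Levels of different genes were compared per transcript length, as FPKM, which divides a count by transcript length and library size (n = 21 libraries). Junb had the highest mean level, 330 FPKM, and Dusp1 the next, 207 FPKM. Fos stood at 113 FPKM, Ier2 at 60.6 FPKM, Jun at 57.9 FPKM and Egr1 at 44.7 FPKM. Atf3 (20.4 FPKM), Nr4a1 (17.0 FPKM), Fosb (11.3 FPKM) and Apold1 (7.21 FPKM) were the lowest. Neighbours in this order did not all hold their places from library to library. Junb lay above Dusp1 in 21 of 21 libraries and Dusp1 above Fos in 20. Ier2 lay above Jun in only 8 of 21 libraries, Atf3 above Nr4a1 in 13 and Fosb above Apold1 in 15, so those pairs did not differ beyond their spread.

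Apold1 varied 6.93-fold in CPM between its lowest and its highest library. In the control wounds it was at 14.3, 15.7 and 12.7 CPM in replicates 1 to 3. The 6.4/aFGF libraries had 40.7, 33.7 and 35.7 CPM, and the 7.4/aFGF libraries 18.4, 17.4 and 11.0 CPM. All 3 libraries of 6.4/aFGF thus lay above all 3 of 7.4/aFGF and of the control. In 8.4/aFGF the 3 values were 66.7, 22.4 and 12.7 CPM. Replicate 1 of that group had the highest Apold1 of all 21 libraries, whereas replicate 3 sat at the control level.

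With bFGF, Apold1 was at 20.3, 25.7 and 19.8 CPM at pH 6.4 and at 24.7, 15.0 and 28.9 CPM at pH 8.4. At pH 7.4 it was at 11.0, 9.62 and 49.7 CPM, which put the lowest value of the series and the second highest into one group. By group mean, the order was 6.4/aFGF (36.7 ± 3.62 CPM, SD, n = 3), 8.4/aFGF (33.9 ± 28.8), 7.4/bFGF (23.4 ± 22.8), 8.4/bFGF (22.9 ± 7.13), 6.4/bFGF (21.9 ± 3.29), 7.4/aFGF (15.6 ± 3.99) and control (14.3 ± 1.52). Libraries overlapped in 5 of the 6 pairs of neighbours in this order, the exception being 6.4/bFGF and 7.4/aFGF. For each of the other 9 genes the libraries of neighbouring groups overlapped in 6 of 6 pairs.

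**Figure D1:**
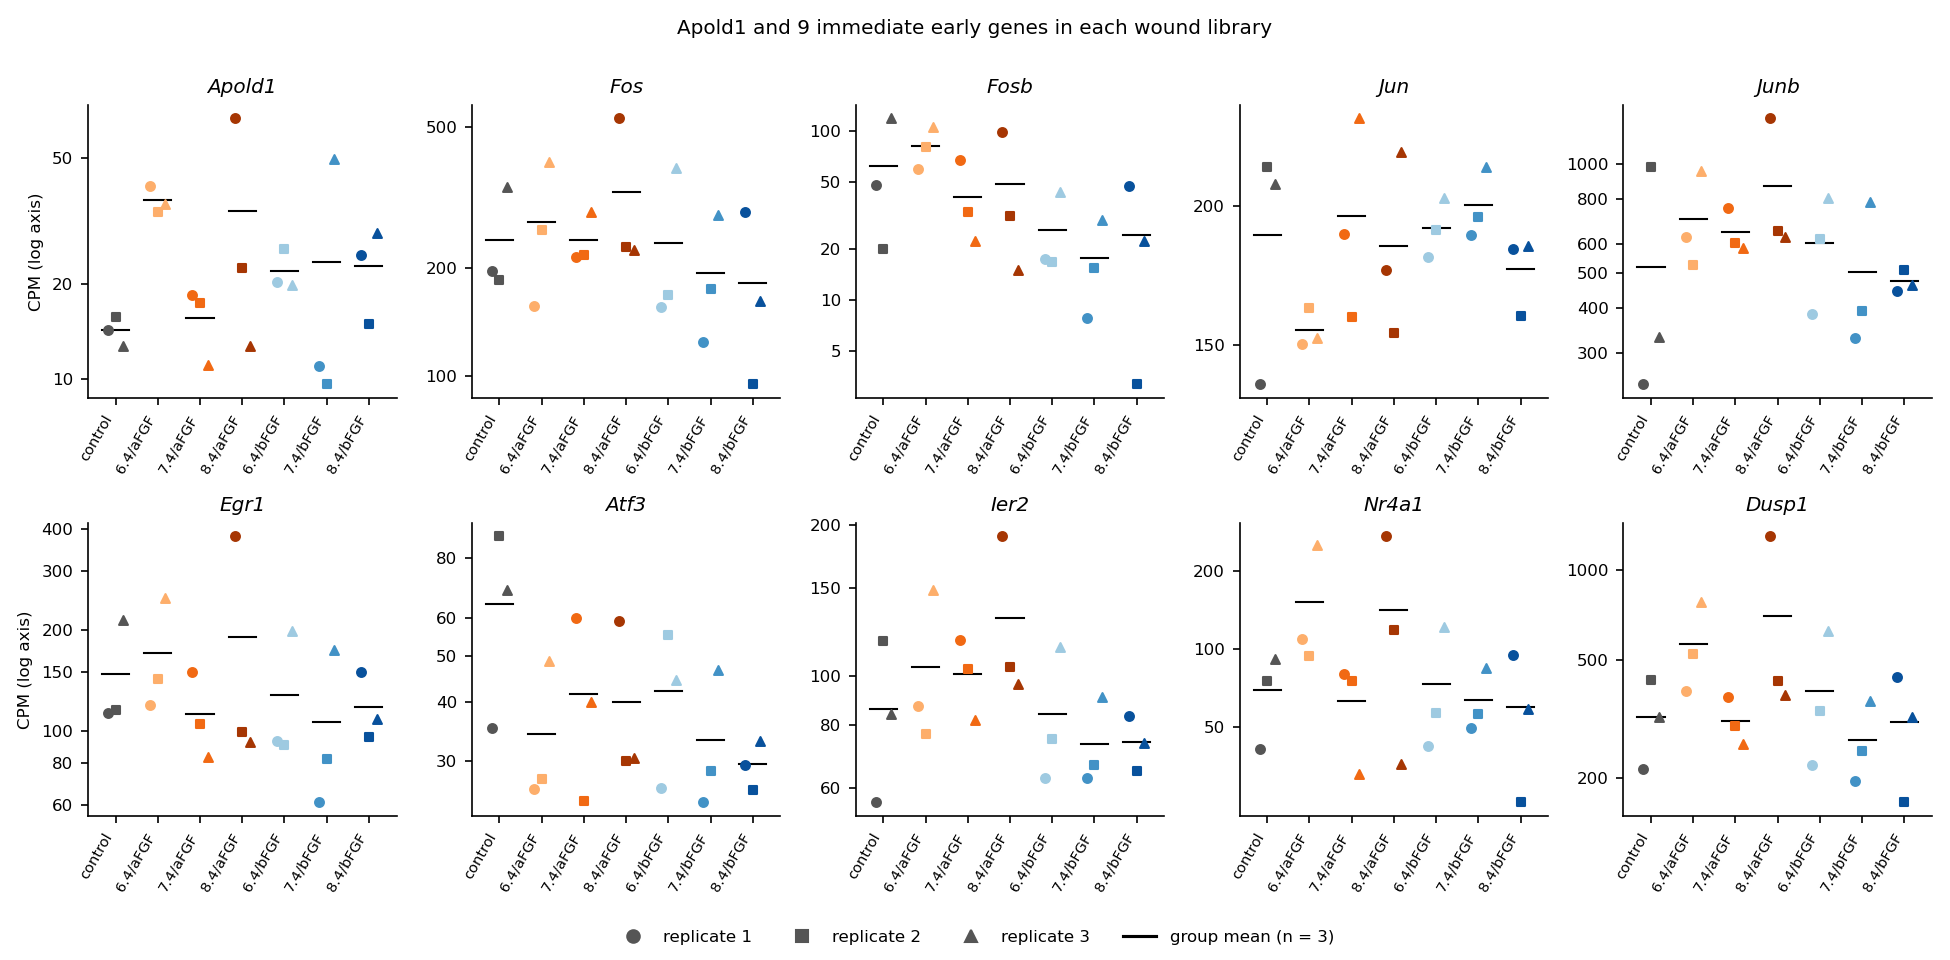
Level of each of the 10 genes in every library, as CPM on a log axis, by group; colours mark groups, shapes mark replicates 1 to 3 and the bars are group means (n = 3). Replicate 1 of 8.4/aFGF is the highest point in 7 of the 10 panels, and Jun spans the narrowest range, 138 to 240 CPM.

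Among the AP-1 genes, Fosb spanned the widest range and Jun the narrowest. Fosb went from 3.17 CPM in replicate 2 of 8.4/bFGF to 119 CPM in replicate 3 of the control, a 37.4-fold range. It was at 59.7, 80.2 and 106 CPM in 6.4/aFGF, at 67.0, 33.1 and 22.5 CPM in 7.4/aFGF and at 98.4, 31.6 and 15.2 CPM in 8.4/aFGF. The bFGF groups had 17.4, 16.8 and 43.9 CPM at pH 6.4, 7.84, 15.6 and 29.6 CPM at pH 7.4, and 47.6, 3.17 and 22.4 CPM at pH 8.4. Each group overlapped with several others, the control included, whose 3 libraries were at 48.2, 20.0 and 119 CPM. Fos ran from 94.5 to 527 CPM, Junb from 245 to 1338 CPM and Atf3 from 24.6 to 89.0 CPM, ranges of 5.57-fold, 5.46-fold and 3.62-fold. Jun stayed between 138 and 240 CPM, a 1.74-fold range.

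Of the remaining genes, Nr4a1 varied most. It was at 109, 93.9 and 251 CPM in 6.4/aFGF, at 80.2, 75.2 and 33.1 CPM in 7.4/aFGF and at 271, 118 and 36.1 CPM in 8.4/aFGF. Dusp1 was at 391, 524 and 786 CPM in 6.4/aFGF, at 373, 299 and 260 CPM in 7.4/aFGF and at 1303, 423 and 379 CPM in 8.4/aFGF. For both genes all 3 libraries of 6.4/aFGF exceeded all 3 of 7.4/aFGF, as for Apold1. In the control, Nr4a1 had 41.1, 75.4 and 91.4 CPM and Dusp1 had 213, 320 and 427 CPM, which overlapped with most hydrogel groups. Egr1 ranged from 61.2 to 381 CPM and Ier2 from 56.1 to 190 CPM over the 21 libraries. Replicate 1 of 8.4/aFGF was the highest library for Apold1, Fos, Junb, Egr1, Ier2, Nr4a1 and Dusp1, and replicate 2 of 8.4/bFGF the lowest for Fos, Fosb, Nr4a1 and Dusp1.

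Differences between libraries of 1 group were large for these genes. The standard deviation of log2 CPM within groups (14 degrees of freedom) was 1.19 for Fosb, 0.87 for Nr4a1, 0.73 for Apold1, 0.68 for Egr1 and 0.22 for Jun, against a median of 0.29 over the 15811 genes tested. Of the 10 genes, 9 lay above that median, Jun being the exception. For Nr4a1, 87.0% of the genes tested had a smaller spread, and for Apold1 82.1%. Differences between the 7 groups made up between 17.3% (Egr1) and 41.5% (Fosb) of the variance of the 10 genes, and the median over all genes tested was 39.0%. Most of the variance of these genes therefore lay between libraries that had been treated alike.

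This spread was shared. In replicate 3 of 7.4/bFGF all 10 genes were at their highest of the 3 libraries of the group, and in replicate 1 of 8.4/aFGF 9 of 10 were, with Jun as the exception. Replicates 3 of 6.4/aFGF, 1 of 7.4/aFGF and 3 of 6.4/bFGF each held the highest value for 8 of 10 genes. At the other end, replicates 1 of 7.4/bFGF and 2 of 8.4/bFGF held the lowest value of their group for 9 of 10 genes each. The genes parted in the control, where replicate 2 led in 6 genes, Apold1, Jun, Junb, Atf3, Ier2 and Dusp1, and replicate 3 in the other 4, Fos, Fosb, Egr1 and Nr4a1. They also parted in 8.4/bFGF, where replicate 1 led in 6 genes and replicate 3 in Apold1, Jun and Atf3.

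**Figure D2:**
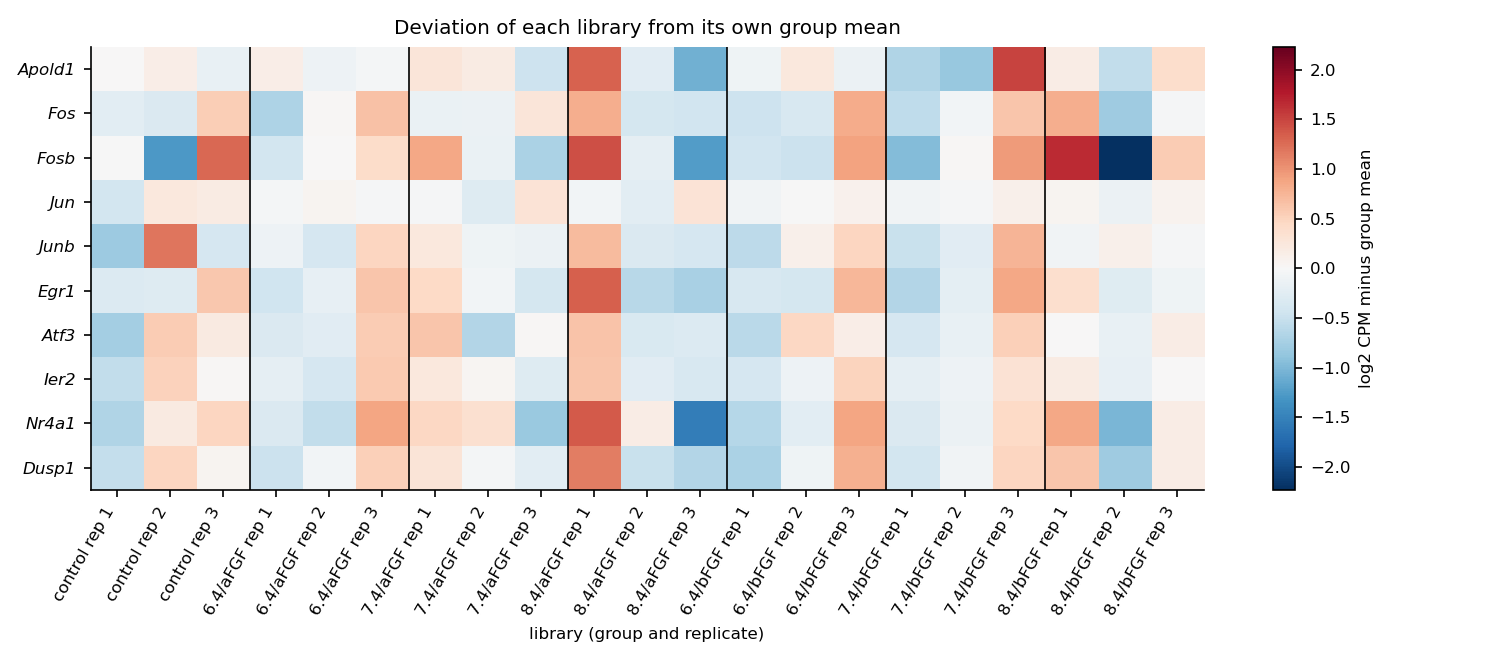
Deviation of each library from the mean of its own group, in log2 CPM, for the 10 genes (rows) and 21 libraries (columns, groups divided by lines); red is above and blue below the group mean. Replicate 1 of 8.4/aFGF and replicate 3 of 7.4/bFGF are red in at least 9 of 10 rows, and the Jun row is the palest.

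Pearson correlations of these deviations over the 21 libraries describe the same pattern. They share library and depth, and no p is given. The 36 pairs among the 9 genes other than Apold1 had a median r of 0.68, and 35 of them were positive. Ier2 and Dusp1 were the closest pair with r = 0.89, followed by Nr4a1 and Dusp1 with 0.88 and Junb and Ier2, also with 0.88. Jun stood apart, at r = -0.059 with Nr4a1 and 0.026 with Fosb, and reached no more than 0.49, with Atf3. Without Jun the remaining 28 pairs ran from 0.16, for Fosb and Junb, to 0.89, with a median of 0.76.

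The median r of a gene with the other 9 ran from 0.644 to 0.785 for Fos, Dusp1, Nr4a1, Egr1 and Ier2. It was 0.585 for Atf3, 0.576 for Fosb, 0.564 for Junb and 0.24 for Jun. For Apold1 it was 0.563, close to that of Junb. Its r was 0.68 with Egr1, 0.63 with Nr4a1, 0.63 with Dusp1, 0.58 with Fosb, 0.56 with Junb, 0.55 with Ier2, 0.52 with Atf3 and 0.46 with Fos, and -0.082 with Jun. With the mean of the 9 genes it was 0.67 (Spearman rho 0.56). Here 2 libraries stood out, replicate 3 of 7.4/bFGF, whose Apold1 was 1.51 above its group mean in log2 CPM, and replicate 1 of 8.4/aFGF, with 1.32. Without them r with the mean of the 9 genes was 0.49, and it was 0.33 when the group means were also taken anew. On that last basis r was 0.59 with Nr4a1, 0.43 with Fosb, 0.34 with Dusp1 and 0.25 with Ier2, and it was 0.16 with Atf3, 0.13 with Junb, 0.053 with Egr1, -0.034 with Fos and -0.37 with Jun.

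Genes outside the set followed Apold1 more closely. Among 15810 genes, 175 had a higher r with Apold1 than Egr1, its nearest of the 9, which ranked 176. The closest was Serinc1, a serine incorporator of cell membranes, with r = 0.95 (0.89 without the 2 libraries). Serinc1 varied only from 220 to 290 CPM, with a median of 239 CPM, a 1.32-fold range against 6.93-fold for Apold1. Its highest library was replicate 3 of 7.4/bFGF, as was the second highest library of Apold1. Replicate 1 of 8.4/aFGF and replicate 3 of 7.4/bFGF had the lowest library scaling factors, 0.898 and 0.929. Low factors raise the CPM of every gene in a library, and their part in so narrow a range was not tested. Next came Irs2, an adaptor of the insulin receptor, with r = 0.89 and a range from 36.6 to 102 CPM, and Hs3st3b1, a heparan sulfate sulfotransferase, with 0.87. Elk1, an ETS factor known to drive Fos together with serum response factor, had r = 0.86. Eif3a, Kctd10, Snx4, Ankrd13c, Zbtb11 and Gtf2h1 made up the 10 nearest, with r between 0.83 and 0.85, and none of the 10 was on the list of 50 other immediate early genes.

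**Figure D3:**
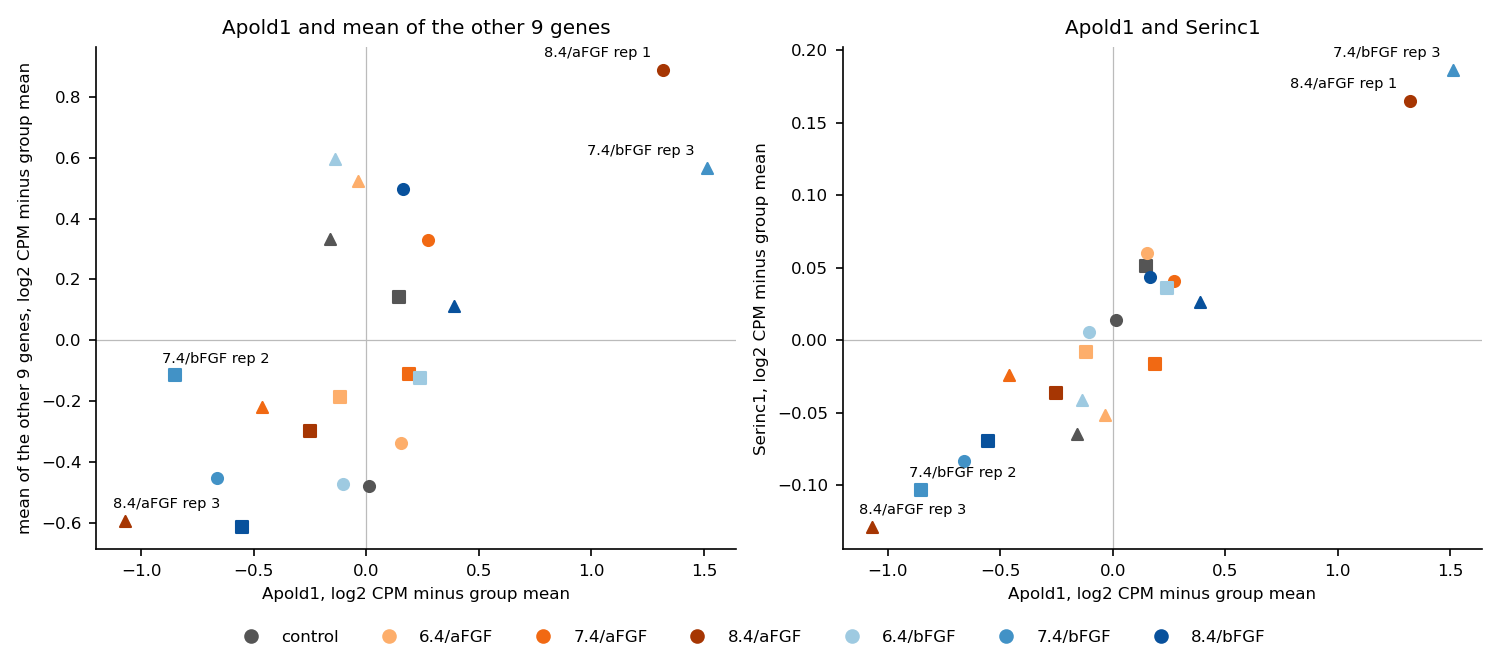
Deviation of Apold1 from its group mean in each library (x axis, log2 CPM) against the mean deviation of the other 9 genes (left) and against Serinc1 (right, on a narrower y axis); colours mark groups and shapes replicates 1 to 3. Over 21 libraries r is 0.67 on the left and 0.95 on the right, and the 2 libraries farthest to the right, at 1.32 and 1.51, are named.

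The mean of the 9 genes had other neighbours, and 6 of its 10 nearest were immediate early genes of the list. These were Sik1, a salt-inducible kinase (r = 0.91), Egr2 (0.85), Zfp36, which promotes the decay of short-lived messengers (0.84), Btg2 (0.83), Ccn1, a secreted matrix protein (0.83), and Klf6 (0.82). The other 4 were D8Ertd738e with 0.89, Has1 with 0.82, Vps28 with 0.82 and Gm6377 with 0.82. Has1, a hyaluronan synthase, ran from 2.87 to 380 CPM with a median of 44.8 CPM, and its highest library was again replicate 1 of 8.4/aFGF. Of the 50 other immediate early genes, 49 had a positive r with Apold1 and 48 with the mean of the 9 genes, where 54.5% and 52.8% of all genes tested did. An r over 0.5 was found for 25 of the 50 with Apold1 and for 21 with the mean of the 9 genes. Among all genes 7.21% and 6.89% had one. By these counts the list was no farther from Apold1 than from the mean of the 9 genes.

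Lists of cell type markers moved with these genes to different degrees. The macrophage list had r = 0.71 with the mean of the 9 genes and 0.44 with Apold1, and was highest in replicate 1 of 8.4/aFGF, with 8731 summed CPM against a median of 5308. Endothelial markers went the other way for the 9 genes, with r = -0.39 and 0 of 20 genes positive, but had r = 0.33 with Apold1, with 20 of 20 genes positive. Pecam1, Plvap, Cdh5 and Eng, the most abundant genes of that list, had an r with Apold1 of 0.43, 0.37, 0.33 and 0.21. By the mean over its genes, the mast cell list had the highest r with Apold1 of the cell type lists, 0.58, with 7 of 7 genes positive, and 0.26 with the 9 genes. Its median r gene by gene was 0.24, and the adipocyte list had the highest, 0.40, with 7 of 8 genes positive. The summed mast cell list ranked 2 and 3 of 21 in replicate 1 of 8.4/aFGF and replicate 3 of 7.4/bFGF. These were the 2 libraries that stood out for Apold1. Skeletal muscle markers had r = -0.43 with Apold1, with 0 of 10 genes positive, and 0.11 with the 9 genes. The heat shock list had r = 0.51 with the 9 genes, with 12 of 12 genes positive, and 0.26 with Apold1, with 11 of 12 positive. Within that list Hspa8, a constitutive chaperone, had r = 0.64 with the 9 genes and 0.69 with Apold1. Dnajb1, Dnaja1, Hspd1 and Hsp90aa1 had 0.52 to 0.59 with Apold1. The rest of the list, Hsp90ab1, Hspb1 and Hspe1 among them, had -0.40 to 0.16 with Apold1. Replicate 3 of 7.4/bFGF had the most neutrophil RNA, 13453 summed CPM against a median of 5276, and the least skeletal muscle RNA, 278 summed CPM against a median of 3495. The part of these cell types in the levels of the 10 genes was not tested.

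A single model of all 21 libraries was fitted to the counts of all genes (edgeR's quasi-likelihood test with Benjamini-Hochberg adjustment), and a gene was called at an adjusted p under 0.05 with a log2 fold change beyond 0.58. Its p-values set a difference between groups against the spread between libraries of the same group. None of the 10 genes was called in any comparison put to a test here. In the test for any difference among the 7 groups, 0 of 10 genes passed, where 18 genes, 0.114% of those tested, did. At an unadjusted p under 0.05 it was again 0 of 10, and 19.3% of all genes. Dusp1 had the lowest adjusted p, 0.289, followed by Nr4a1 with 0.398 and Ier2 with 0.399.

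Hydrogel groups together against the control gave 0 called genes of the 10 (0.00632% of all genes tested). Atf3 was at 35.3, 89.0 and 68.7 CPM in the control and between 24.6 and 59.9 CPM, with a median of 30.3 CPM, in the 18 hydrogel libraries. Replicates 2 and 3 of the control lay above every hydrogel library, and replicate 1 lay among them. Its log2 fold change was -0.82 ± 0.29 (SE), with an adjusted p of 0.191, and it was the only gene of the 10 with an unadjusted p under 0.05 (0.0113), as 16.7% of all genes had. Without replicate 2 of the control the log2 fold change of Atf3 was -0.51. Apold1 was between 9.62 and 66.7 CPM, with a median of 21.3 CPM, in the hydrogel libraries, which enclosed the control values of 12.7 to 15.7 CPM. Its log2 fold change was 0.79 ± 0.46 (adjusted p = 0.394). Fosb had a log2 fold change of -0.84 ± 0.60 (adjusted p = 0.495), which was 0.034 without replicate 3 of the control and -1.26 without replicate 2. DESeq2 called 0 of the 10 genes here too.

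In 6.4/aFGF against 7.4/aFGF, the contrast behind the choice of Apold1, the fitted log2 differences were 1.27 for Nr4a1, 1.23 for Apold1, 1.00 for Fosb, 0.87 for Dusp1 and 0.60 for Egr1. Fos, Junb and Ier2 were at 0.17, 0.12 and 0.045, Atf3 at -0.28 and Jun at -0.34. All 3 libraries of 6.4/aFGF lay above all 3 of 7.4/aFGF for 3 of the 10 genes, Apold1, Nr4a1 and Dusp1, beside 6.04% of all genes tested. Among all 15811 genes 0 (0%) were called in this contrast by edgeR and 19 by DESeq2. Without the 3 libraries with genes of other tissues, the value for Apold1 was 1.04 and that for Jun -0.17. Without replicate 3 of 6.4/aFGF alone, Nr4a1 was at 0.69 and Dusp1 at 0.56, and without replicate 1 of 7.4/aFGF Fosb was at 1.56.

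The comparison of 8.4/aFGF with 7.4/aFGF shares the 7.4/aFGF libraries with the contrast just described. It gave log2 fold changes of 1.18 ± 0.49 for Dusp1 (adjusted p = 0.967, unadjusted 0.0291), 1.17 ± 0.64 for Nr4a1 and 1.12 ± 0.57 for Apold1 (both with an adjusted p of 1.00 after rounding). None was called, as none of all genes tested was (0%), and 4.88% of all genes had an unadjusted p under 0.05. Dusp1 was the only 1 of the 10 with all 3 libraries of 8.4/aFGF above all 3 of 7.4/aFGF, which held for 4.86% of all genes. Without replicate 1 of 8.4/aFGF these values were 0.37 for Dusp1, 0.29 for Nr4a1 and 0.17 for Apold1.

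With bFGF, none of the 10 genes passed the test at either pH. At pH 6.4 against 7.4, 0 of 10 genes were called (0% of all genes) and 0 had an unadjusted p under 0.05 (7.82% of all genes), with log2 fold changes from -0.094 for Apold1 to 0.56 for Fosb. That of Apold1 was 1.09 without replicate 3 of 7.4/bFGF. At pH 8.4 against 7.4, again 0 of 10 were called (0%) and 0 had an unadjusted p under 0.05 (4.07%), with values from -0.19 for Jun to 0.47 for Fosb. Jun was the only 1 of the 10 whose libraries did not overlap there, all 3 being lower at pH 8.4, as for 7.01% of all genes. It was at 183, 159 and 184 CPM at pH 8.4 and at 189, 196 and 217 CPM at pH 7.4, an adjusted p of 0.999, and its log2 fold change was -0.13 without replicate 2 of 8.4/bFGF.

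Whether the step from pH 7.4 to 8.4 differed between the growth factors was tested as an interaction. The difference in log2 fold change, aFGF minus bFGF, was 1.26 ± 0.90 for Nr4a1, 1.15 ± 0.79 for Apold1 and 0.98 ± 0.69 for Dusp1, all with an adjusted p of 0.997. The 95% interval for Apold1 ran from -0.52 to 2.83. None of the 10 genes, and none of all genes tested (0%), was called, and 0 of 10 had an unadjusted p under 0.05 (4.28% of all genes). Without replicate 3 of 7.4/bFGF the value of Apold1 was -0.030, and without replicate 1 of 8.4/aFGF it was 0.21. Nr4a1 was at 0.38 without replicate 1 of 8.4/aFGF and at 0.70 without the 3 libraries with genes of other tissues.

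The comparison of the 9 aFGF with the 9 bFGF libraries over the 3 pH values was the one in which immediate early genes outside the 10 passed the test. Of the 10 genes, 0 were called, where 3.2% of all genes tested were. Fold changes were positive, that is higher with aFGF, for 9 of the 10 genes and for 49.7% of all genes, with a median of 0.47 for the 10 and -0.0016 for all genes on the log2 scale. An unadjusted p under 0.05 in that direction was found for 3 of the 10 genes, Fosb, Ier2 and Dusp1, and for 14.7% of all genes.

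Fosb ran from 15.2 to 106 CPM (median 59.7) with aFGF and from 3.17 to 47.6 CPM (median 17.4) with bFGF. The ranges overlapped, although 5 of 9 aFGF libraries lay above every bFGF library. Its log2 fold change was 1.28 ± 0.49 (adjusted p = 0.0999), and over the alternatives the adjusted p ranged from 0.0320 with DESeq2, which called it, to 0.239. Ier2 ran from 76.6 to 190 CPM (median 104) with aFGF and from 62.6 to 114 CPM (median 73.7) with bFGF, and 3 of 9 aFGF libraries lay above every bFGF library. Its log2 fold change was 0.53 ± 0.19 (adjusted p = 0.0740, from 0.0376 to 0.164 over the alternatives). Dusp1, with medians of 391 and 320 CPM, had a log2 fold change of 0.64 ± 0.28 (adjusted p = 0.146), and Nr4a1, with medians of 93.9 and 56.8 CPM, one of 0.76 ± 0.37 (adjusted p = 0.190). Without replicate 1 of 8.4/aFGF these values were 0.38 and 0.46.

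For Apold1 no difference was detected. It ran from 11.0 to 66.7 CPM (median 22.4) with aFGF and from 9.62 to 49.7 CPM (median 20.3) with bFGF, so the ranges nearly coincided. Its log2 fold change of 0.24 ± 0.32 (adjusted p = 0.668) had a 95% interval from -0.44 to 0.93. The sign rested on 1 library, since the value was -0.073 without replicate 1 of 8.4/aFGF. It stayed positive in the other 20 fits without a single library, and was 0.64 without replicate 3 of 7.4/bFGF. Junb, Fos and Egr1 had 0.49, 0.45 and 0.40, Atf3 had 0.15 and Jun had -0.089, with an interval from -0.30 to 0.12. Without replicate 1 of 8.4/aFGF, Fos was at 0.28, Egr1 at 0.069 and Atf3 at 0.020. Leaving out single libraries moved Atf3 between 0.020 and 0.26 and Jun between -0.15 and -0.045.

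**Figure D4:**
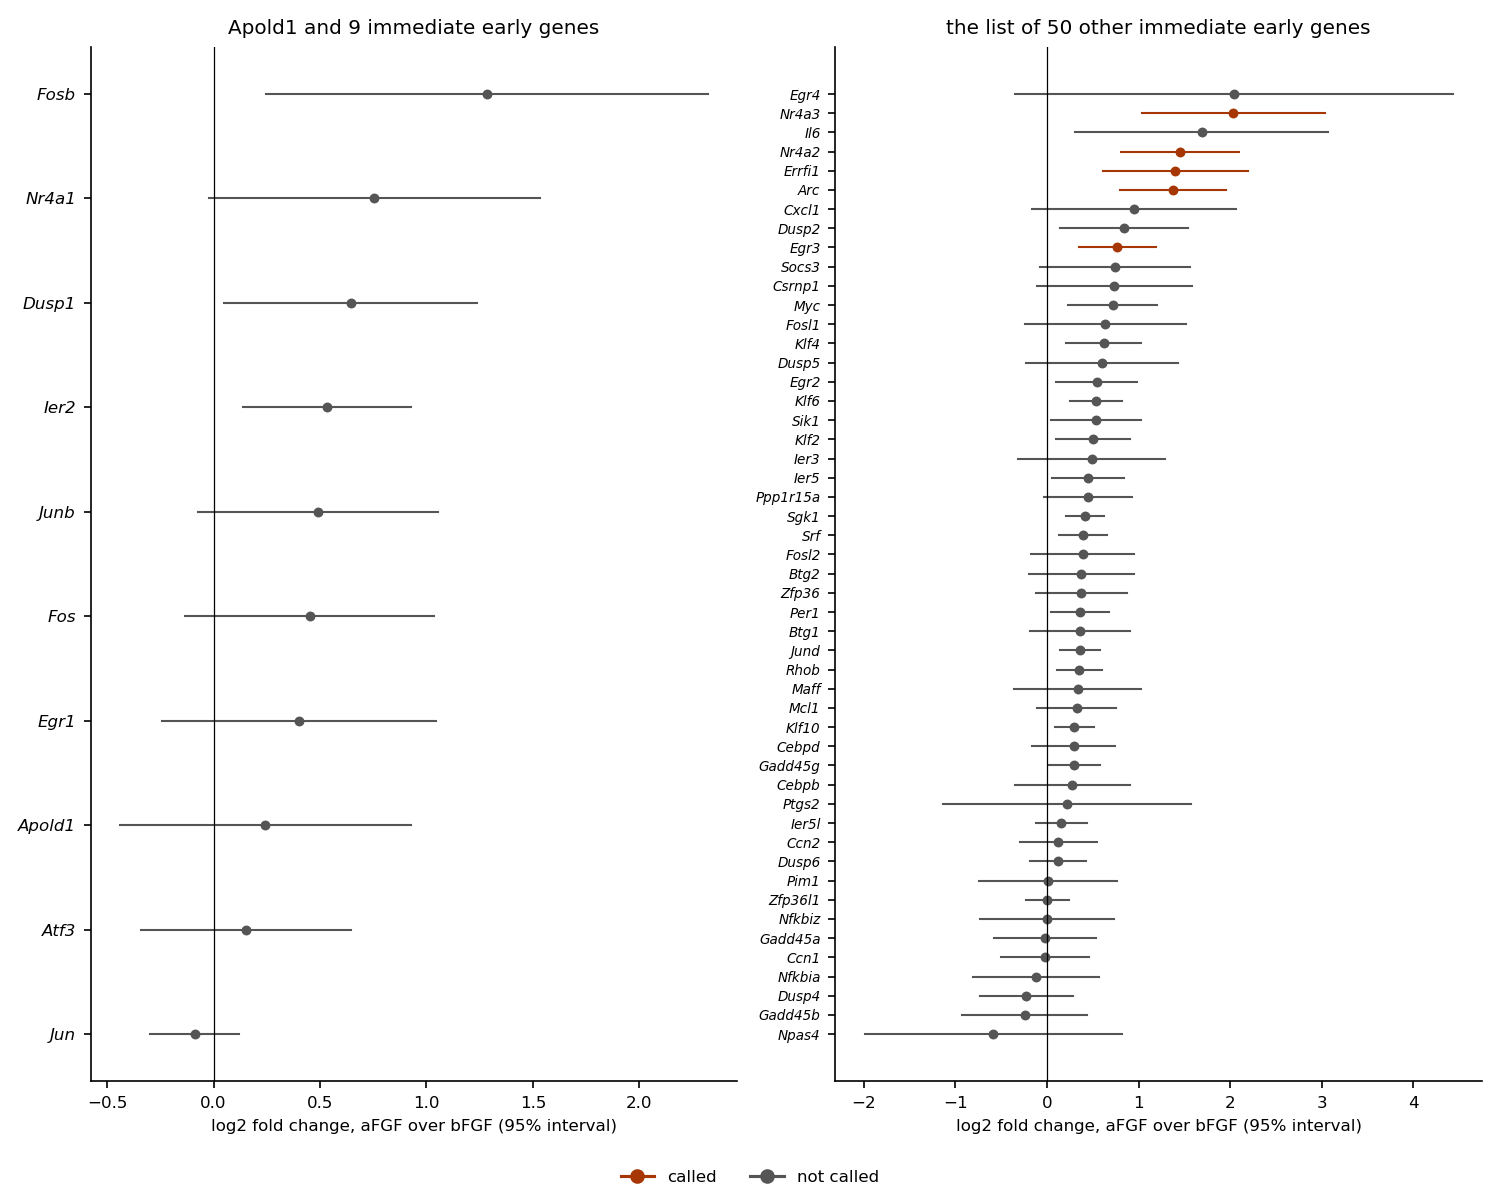
Log2 fold change of aFGF over bFGF libraries (x axis; points, with 95% intervals as lines) for the 10 genes (left) and for the 50 other immediate early genes (right), with called genes in brown. None of the 10 and 5 of the 50 are called, and 9 of the 10 and 43 of the 50 points lie above 0.

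The list of 50 other immediate early genes was chosen with earlier results of these data known. Its genes also moved together, 48 of 50 having a positive r with the mean of the 9 genes. Counts over the list are therefore a description and not independent evidence. Of the 50 genes, 5 were called higher with aFGF and 0 lower, where 1.46% of all genes tested were called higher and 1.74% lower. The median log2 fold change of the 50 was 0.38, 43 were positive, and 21 had an unadjusted p under 0.05, all of them higher (14.7% of all genes). Among them were both relatives of Nr4a1. Nr4a2 ran from 7.84 to 34.5 CPM (median 19.5) with aFGF and from 4.16 to 11.3 CPM (median 6.92) with bFGF, and 7 of 9 aFGF libraries exceeded every bFGF library. It was higher with aFGF than with bFGF by a log2 fold change of 1.45 ± 0.30 (adjusted p = 0.0111). Nr4a3 ran from 12.9 to 87.7 CPM (median 48.9) with aFGF and from 4.49 to 23.8 CPM (median 11.8) with bFGF. Its log2 fold change was the largest of those called, 2.03 ± 0.47 (adjusted p = 0.0162), with 6 of 9 aFGF libraries above every bFGF library. The control libraries of Nr4a3 were at 7.20, 47.2 and 8.79 CPM, so that replicate 2 reached the aFGF median.

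Arc, a cytoskeletal regulator known best from neurons, ran from 3.38 to 18.8 CPM (median 8.00) with aFGF and from 1.97 to 4.94 CPM (median 3.46) with bFGF, and 7 of 9 aFGF libraries lay above all bFGF libraries. It had a log2 fold change of 1.38 ± 0.27 (adjusted p = 0.00884). Errfi1, a feedback inhibitor of the epidermal growth factor receptor, ran from 104 to 862 CPM (median 407) with aFGF and from 72.4 to 264 CPM (median 137) with bFGF, with a log2 fold change of 1.40 ± 0.37 (adjusted p = 0.0281). Egr3, a relative of Egr1, ran from 16.5 to 45.8 CPM (median 29.5) against 11.1 to 28.3 CPM (median 15.7), with 0.77 ± 0.20 (adjusted p = 0.0247). Nr4a2, Nr4a3 and Arc were called under every alternative tried. Egr3 and Errfi1 lost the call in some, with adjusted p-values up to 0.0566 and 0.0651, among them when replicate 1 of 8.4/aFGF, the highest library for all 5 genes, was left out.

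The mean of Nr4a2 was higher with aFGF at each pH, being 21.2 ± 9.67, 16.6 ± 7.74 and 19.9 ± 13.0 CPM (SD, n = 3) at pH 6.4, 7.4 and 8.4 against 8.47 ± 1.34, 6.68 ± 3.97 and 6.11 ± 1.21 CPM with bFGF. The same order of means was found at each pH for Nr4a3, Arc, Errfi1 and Egr3. Control means were 7.00 ± 3.45 CPM for Nr4a2, 21.1 ± 22.7 for Nr4a3, 4.74 ± 0.72 for Arc, 172 ± 89.0 for Errfi1 and 22.0 ± 7.29 for Egr3. At each pH the aFGF mean lay above the control mean for all 5 genes. The bFGF mean lay below it for Nr4a3, Arc, Errfi1 and Egr3. Neither growth factor alone was tested against the control. Within the aFGF groups, replicates 3 of 7.4/aFGF and 8.4/aFGF stayed low for all 5 genes, between 3.38 and 4.69 CPM for Arc for example, and overlapped with the bFGF range. By family, the 3 NR4A genes had log2 fold changes from 0.76 to 2.03, the 4 EGR genes from 0.40 to 2.04, the 4 FOS genes from 0.39 to 1.28, the 4 KLF genes from 0.30 to 0.62, the 4 IER genes from 0.16 to 0.53, the 3 JUN genes from -0.089 to 0.49, and the 5 DUSP genes from -0.23 for Dusp4 to 0.84 for Dusp2. The upper end of the EGR family, Egr4, did not pass the test (adjusted p = 0.252). It lay near the floor, with a median of 0.026 CPM and at most 0.56 CPM over the 21 libraries.

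**Figure D5:**
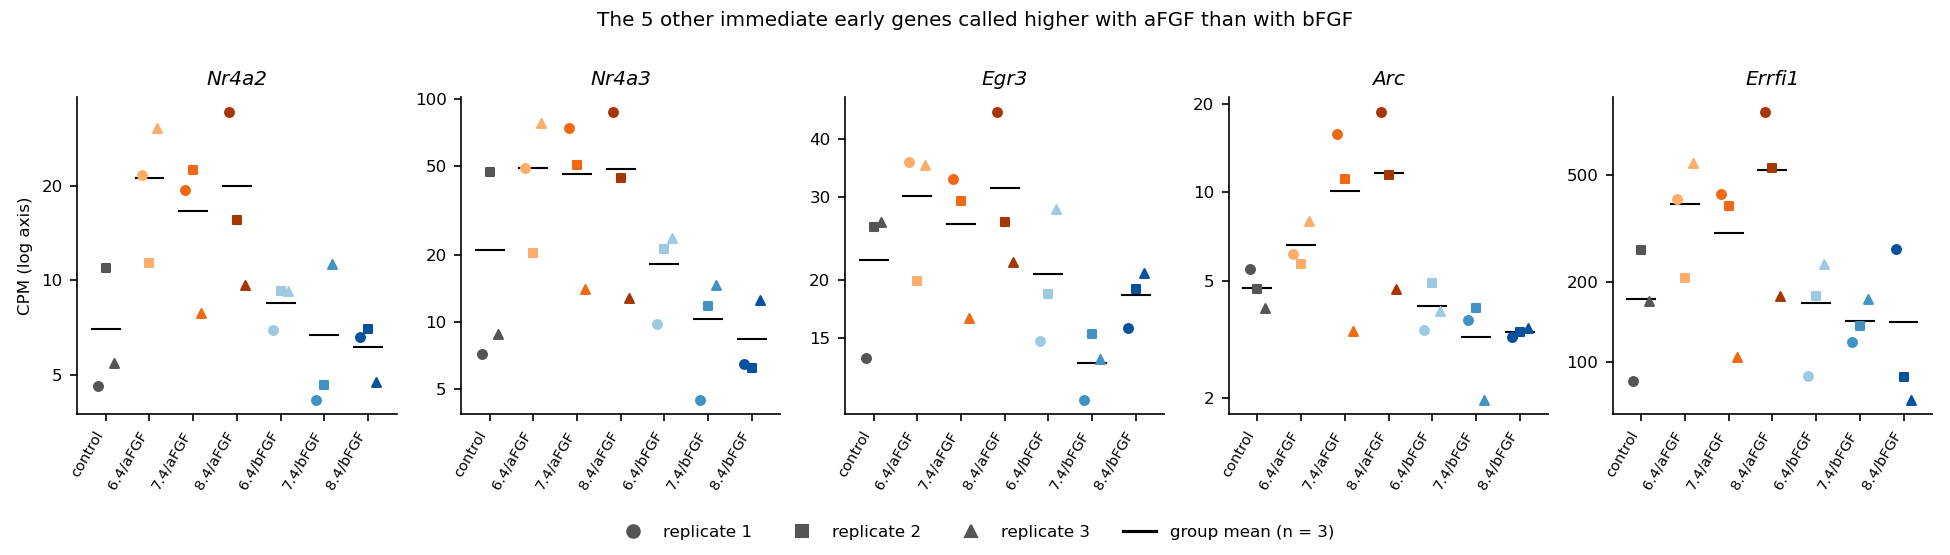
Level of Nr4a2, Nr4a3, Egr3, Arc and Errfi1 in every library, as CPM on a log axis, by group; shapes mark replicates 1 to 3 and the bars are group means (n = 3). The aFGF means lie above the bFGF means at each pH, and replicates 3 of 7.4/aFGF and 8.4/aFGF lie low, down to 3.38 CPM for Arc.

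Other genes moved along the same division of libraries. Of the liver list, 5 of 14 genes were called higher with aFGF and 0 lower, where 1.46% of all genes tested were called higher. Of these 14 genes, 13 were positive, with a median log2 fold change of 2.69. By group, the mean log2 CPM of the liver list lay between -2.20 in 6.4/bFGF and 0.31 in 8.4/aFGF, a low level on average. Its SD within 8.4/aFGF was 2.45 (n = 3). Summed, the liver list overlapped, with 35.7 to 202 CPM with aFGF and 14.2 to 372 CPM with bFGF. The ovary and oviduct list had 1 of 8 genes called higher and 1 lower. Of the fibroblast list, 0 of 8 were called and 1 was positive. All 9 macrophage markers had positive fold changes with aFGF. The summed macrophage list ran from 4634 to 8731 CPM (median 7087) with aFGF and from 3250 to 5540 CPM (median 5238) with bFGF, and 5 of 9 aFGF libraries lay above every bFGF library. Pdgfrb, the platelet-derived growth factor receptor of pericytes and fibroblasts, was called lower, with a log2 fold change of -0.79. It lost that call without replicate 1 or 2 of 8.4/aFGF or replicate 1 of 6.4/bFGF, where its adjusted p reached 0.0539. Of the heat shock list, 0 of 12 genes were called in either direction and 11 were positive, and Hspa8 had 0.38 ± 0.10, below the fold required. No endothelial marker of 20 was called, 6 of the 20 had positive values, and Plvap, Pecam1, Eng and Cdh5 lay between -0.087 and 0.020. The part of these lists in the difference of the immediate early genes was not tested.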

How the data were processed

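RNA sequencing of wound skin gave 21 libraries in 7 groups of 3. The authors deposited a table per library with whole-number read counts per gene and FPKM values for 18806 genes. The submitters' processing notes name the genome build GRCm39, and the aligner and counter are not given in the sources used here. FPKM served only to compare levels between genes. CPM were computed with TMM library sizes, and log2 CPM with a prior count of 2. Genes passing edgeR's filterByExpr (15811) were tested with R 4.3.3 and edgeR 4.0.16 (quasi-likelihood test, 1 mean per group, all 21 libraries, Benjamini-Hochberg adjustment over all genes tested). Growth factors and hydrogels were compared as contrasts of equally weighted group means. Alternatives used DESeq2 1.42.0, limma 3.58.1 on log2(FPKM + 1), other filters and scaling, a replicate block, and fits without single libraries. The scripts were tested on simulated data.

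Groups and replicates came from the labels. The 10 genes, the marker lists and the list of 50 other immediate early genes were chosen with earlier results of these data known, and 3 of the marker lists (bone with cartilage, liver, oviduct with ovary) because such genes had been seen high in single libraries. Named beside the 10 genes were the 10 genes nearest to Apold1 and to the mean of the other 9 by r, every called gene of the immediate early, heat shock and endothelial lists, and, for a list with no called gene, its 4 most abundant. Pdgfrb, Egr4, Dusp2, Dusp4, Dnajb1, Dnaja1, Hspd1 and Hsp90aa1 were named after their values were seen. Libraries of 1 group differed by far more than counting noise. No sequences were used, and 1 result on a single marker gene is not reported here.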

Additional observations from a re-analysis of the deposited data

How the results depend on the processing

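In the comparisons tested, that is without 6.4/aFGF against 7.4/aFGF, 0 of the 10 genes were called under any alternative, apart from aFGF against bFGF, where DESeq2 called 1 (Fosb) and leaving out single libraries gave 0 to 1 (Ier2, without replicate 3 of 8.4/aFGF or of 6.4/bFGF). Of 2176 values recomputed, 2064 kept direction and side of the threshold, or moved by less than their limit.

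Counts over all genes depended more on the setting. For any difference among groups (18 genes), the replicate block gave 10, the fit without the 3 libraries with genes of other tissues 3, DESeq2 2030 and leave-one-out 7 to 864, the highest without replicate 2 of the control. For hydrogels against control (1 gene) a minimum of 10 counts gave 5, the replicate block 2, the fit without the 3 libraries 0, DESeq2 171 and leave-one-out 0 to 1189, the highest again without replicate 2 of the control. DESeq2 called 19 genes in 6.4/aFGF against 7.4/aFGF, 31 in 8.4/aFGF against 7.4/aFGF (leave-one-out 0 to 1), 3 in each of the bFGF contrasts and 2 in the interaction. For aFGF against bFGF (506 genes) it called 777, limma on log2(FPKM + 1) 212 with and 191 without a filter, the replicate block 403 and leave-one-out 269 to 714. It was 269 to 335 without replicate 3 of 6.4/aFGF, 1 of 7.4/aFGF, 1 or 2 of 8.4/aFGF, 1 of 6.4/bFGF, 1 of 7.4/bFGF or 3 of 8.4/bFGF. Of the 50 other immediate early genes, 3 were called by limma without a filter, 8 by DESeq2 and 3 to 9 in leave-one-out, with 3 without replicate 3 of 6.4/aFGF, 1 of 7.4/aFGF, 1 of 8.4/aFGF, 1 of 6.4/bFGF or 1 of 7.4/bFGF and 9 without replicate 2 of the control or 3 of 8.4/aFGF. The causes were not tested.

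Signs turned for Apold1 in 6.4/bFGF against 7.4/bFGF (0.23 by limma on log2(FPKM + 1), with or without a filter, 0.30 with FPKM + 0.1, and -0.47 to 1.09 in leave-one-out), for Apold1 in aFGF against bFGF (-0.073 to 0.64) and in the interaction (-0.030 to 1.55), for Fosb in hydrogels against control (-1.26 to 0.034) and for Dusp1 in 8.4/bFGF against 7.4/bFGF (-0.14 to 0.50). The r of Apold1 with the mean of the 9 genes was 0.33 with group means retaken without replicate 1 of 8.4/aFGF and replicate 3 of 7.4/bFGF, an alternative chosen after seeing the data, and the median r of the 36 pairs was 0.54 without removal of group means.

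Replicate numbers did not pair the libraries. Correlations of deviations for the 63 pairs with the same number ran from -0.64 to 0.42, 14 were over 0.1, and 5 of 21 libraries correlated best with their own number. With the replicate block 0 of the 10 genes were called. The 3 libraries per group limit what can be seen, and the interval of the interaction for Apold1 includes differences of more than 1 on the log2 scale.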
